A study of Mus musculus with 5 samples.

Results

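Myeloid cells that restrain T cells are recognised by a small set of effector genes, and 8 of the 32285 genes measured here were chosen from that set by name: Nos2, Arg1, Acod1, Cd84, Cd274, Tgfb1, Gch1 and Gchfr. The choice was made with earlier results of these data known. All 8 symbols were present in the gene annotation of the libraries. The data came from female wild-type C57BL/6J mice in 3 conditions: mice bearing AT3-gcsf tumours, mice bearing AT3 tumours, and naive mice without a tumour. AT3 is a mouse mammary carcinoma line, and AT3-gcsf is named for G-CSF, the growth factor of the neutrophil lineage; the labels give neither the construct nor the age or number of mice. Neutrophils sorted from bone marrow, peripheral blood and lung were hashtagged, and each condition was run as 1 lane of 10x Chromium (version 3 chemistry), loaded with about 24000 cells, 8000 from each tagged sample. Each library therefore held 3 tagged populations, named MHTO3, MHTO4 and MHTO5 in AT3-gcsf, MHTO7, MHTO8 and MHTO10 in AT3, and MHTO3, MHTO4 and MHTO5 again in naive. No label says which tag marks which tissue, so a population of one library has no stated partner in another.

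These genes act through a few separate routes. Nos2 encodes inducible nitric oxide synthase, which makes nitric oxide from arginine and needs the cofactor tetrahydrobiopterin; Gch1 encodes GTP cyclohydrolase 1, the rate-limiting enzyme of that cofactor's synthesis, and Gchfr encodes the protein through which the cofactor feeds back on Gch1. Arg1 encodes arginase 1, which consumes the same arginine. Acod1 encodes the enzyme that makes itaconate from cis-aconitate of the Krebs cycle. On the surface and outside the cell, Cd274 encodes PD-L1, the ligand of the T cell receptor PD-1, Cd84 encodes a self-binding receptor of the SLAM family, and Tgfb1 encodes the cytokine TGF-beta 1.

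After filtering, 10164 AT3-gcsf, 7615 AT3 and 7376 naive cells were used, with medians of 7590.5, 4795 and 2779 unique molecular identifiers (UMIs, counted transcript molecules) per cell. Depth was thus highest in AT3-gcsf and lowest in naive, and condition and lane cannot be told apart. The libraries shared few cell barcodes, 20 between AT3-gcsf and naive, 44 between AT3 and naive and 20 between AT3-gcsf and AT3. The 11 neutrophil markers each reached 20 UMIs per 1000000 UMIs (CPM) in every population and together made up 11.4% to 45.4% of UMIs. Markers of other cells were also present: the epithelial gene Scgb1a1 was at 885 CPM in AT3-gcsf, 2705 CPM in AT3 and 2966 CPM in naive, above the neutrophil receptor gene Csf3r at 760.2, 1059 and 1472 CPM. Summed antigen-presentation markers lay at 9.37 to 44.3 CPM in AT3-gcsf, 12.2 to 457 CPM in AT3 and 201 to 3079 CPM in naive populations, and summed lymphocyte markers at 1.29 to 8.96, 4.32 to 30.4 and 93.5 to 106 CPM. With 1 library per condition there is no spread between mice and no test: intervals are 95% and exact (Poisson for CPM, Clopper-Pearson for shares of cells), and they cover counting error only. A sum over cells does not separate fewer expressing cells from less RNA per cell; the shares of cells below bear on that. A gene was counted as different when its CPM differed at least 2-fold after adding 5 CPM to both values and it reached 20 CPM in the higher sum.

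Nos2 (chr11:78920787-78960254, plus strand, mm10) was highest in the AT3-gcsf library, intermediate in AT3 and close to absent in naive cells. It stood at 31.7, 52.3 and 42.1 CPM in AT3-gcsf MHTO3, MHTO4 and MHTO5, at 6.51, 12.8 and 8.24 CPM in AT3 MHTO7, MHTO8 and MHTO10, and at 0.835, 0 and 0.341 CPM in the naive populations MHTO3, MHTO4 and MHTO5. Each AT3-gcsf population lay above each AT3 population, and each AT3 population above each naive one, with no overlap of the intervals between conditions. A total of 3891 Nos2 UMIs were counted in AT3-gcsf, against 487 in AT3 and 9 in naive. The ratio of CPM was 142 (74.7 to 311) for AT3-gcsf over naive and 4.62 (4.21 to 5.09) for AT3-gcsf over AT3. For AT3 over naive it was 30.7 (16.0 to 67.5), but neither library reached 20 CPM, so Nos2 was not among the genes compared there.

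In single cells Nos2 was spread over many cells of the AT3-gcsf library. At least 1 Nos2 UMI was found in 14.9%, 25.9% and 20.9% of cells in AT3-gcsf MHTO3, MHTO4 and MHTO5, in 5.04%, 5.09% and 2.36% of cells in AT3 MHTO7, MHTO8 and MHTO10, and in 0.105%, 0% and 0.0834% of cells in the naive populations. Because deeper cells show more genes, each cell was also thinned to 1500 UMIs, which left out 114 AT3-gcsf, 89 AT3 and 447 naive cells that had fewer. The thinned shares were 3.99%, 6.52% and 4.52% in AT3-gcsf, 1.11%, 1.41% and 0.998% in AT3, and 0.0385%, 0% and 0.0439% (1, 0 and 1 cells) in naive populations, in the order of tags above. A count of 0 is bounded here and below by 3 counts: the 0 of 2130 cells of naive MHTO4 allows a share of up to 0.141%. The order of the conditions was the same before and after thinning. Cells carrying 5 or more lymphocyte-marker UMIs, a cell type not known for Nos2, gave it in 1 of 10 cells in AT3-gcsf, 1 of 22 in AT3 and 0 of 88 in naive (a count of 0 allows up to 3.41%). With so few such cells their share with a Nos2 UMI in the AT3-gcsf lane is bounded only to between 0.253% and 44.5%. Their median depth was 7157.5 UMIs against 7590.5 in all cells. The part of free RNA or of doublets in that share was not tested.

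Gchfr (chr2:119167773-119172390, plus strand) was the other member that set AT3-gcsf apart. Its level was 19.1, 28.1 and 23.1 CPM in AT3-gcsf MHTO3, MHTO4 and MHTO5, 2.60, 2.50 and 1.67 CPM in AT3 MHTO7, MHTO8 and MHTO10, and 0.278, 0.147 and 2.61 CPM in the naive populations MHTO3, MHTO4 and MHTO5. All 3 AT3-gcsf populations lay above all other populations, while the AT3 populations and naive MHTO5 had overlapping intervals. The ratio of CPM was 10.1 (8.39 to 12.1) for AT3-gcsf over AT3 and 26.2 (18.0 to 39.8) for AT3-gcsf over naive. At 23.9 CPM in the AT3-gcsf library Gchfr lay just above the minimum of 20 CPM, and after thinning, which weights each cell equally, it fell below that minimum and was not counted. Thinned cells carried Gchfr in 1.73%, 2.50% and 2.19% of AT3-gcsf cells of MHTO3, MHTO4 and MHTO5, in 0.0799% to 0.555% of AT3 cells and in 0.0385% (1 cell) to 0.307% of naive cells, where the unthinned shares were 9.24% to 14.7%, 0.551% to 2.27% and 0.0702% to 0.751%. Lymphocyte-marker cells carried it in 0 of 10 cells in AT3-gcsf, 1 of 22 in AT3 and 0 of 88 in naive.

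**Figure D1:**
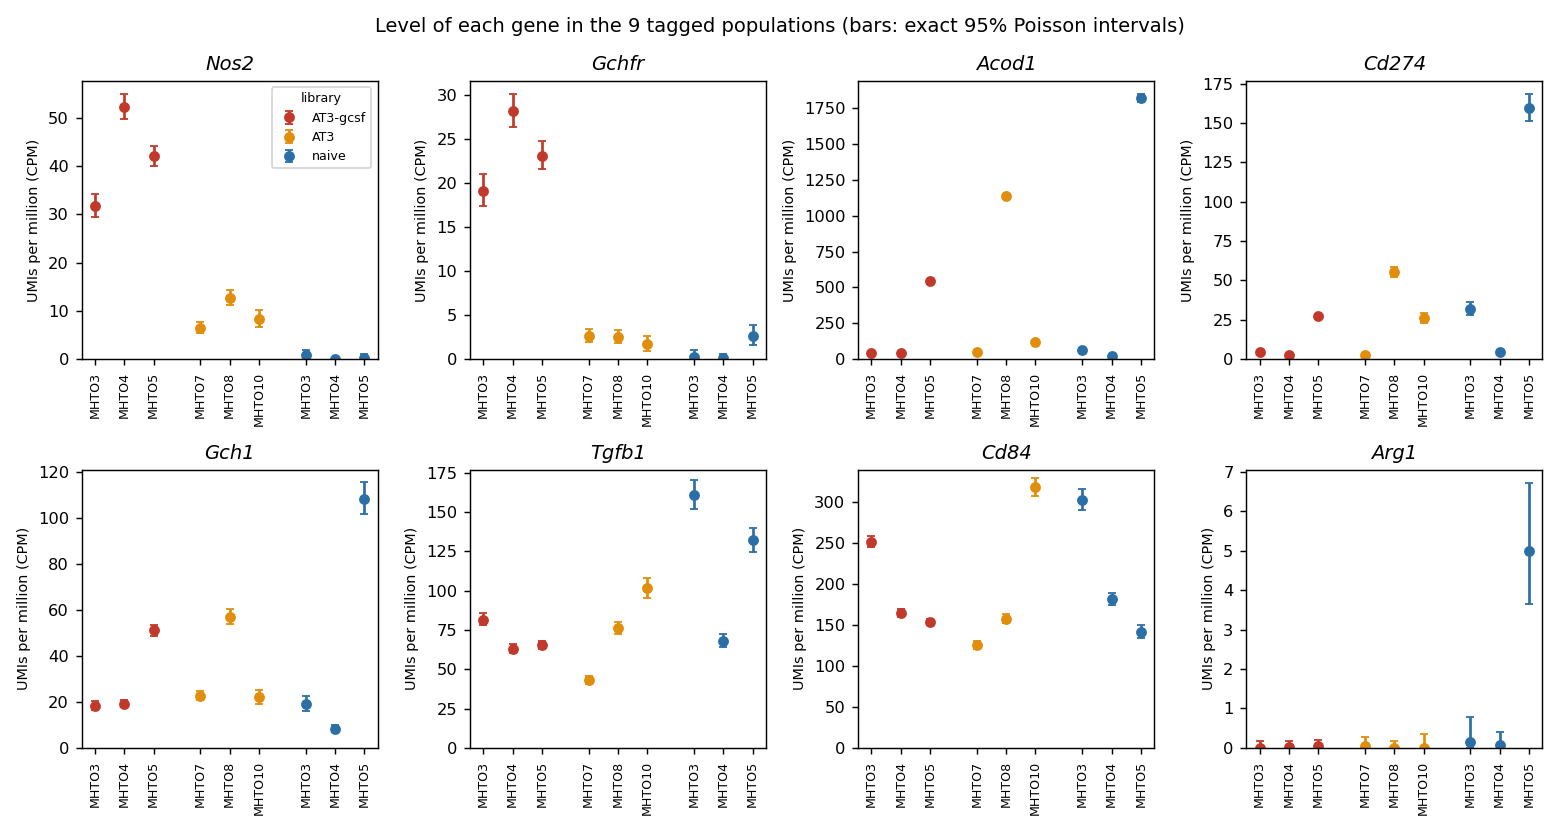
Level of each gene in CPM (vertical axis, linear, a separate scale for each gene) in the 9 tagged populations, with exact 95% Poisson intervals. Nos2 and Gchfr were highest in the 3 AT3-gcsf populations, whereas Acod1, Cd274 and Gch1 peaked in 1 population of each library.

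Counted over the library sums, 7 of the 8 genes reached 20 CPM in AT3-gcsf or naive cells. Of these, 2 (Nos2 and Gchfr) were at least 2-fold higher in AT3-gcsf than in naive cells, against 4.1% of the 4342 genes compared. Another 2 (Acod1 and Cd274) were at least 2-fold lower, against 21.3% of genes. Between AT3-gcsf and AT3, where 7 were also compared, again 2 (Nos2 and Gchfr) were higher, against 1.88% of 3669 genes. None was lower there, against 3.41%. Between AT3 and naive none of the 5 members compared was called, where 1.72% of 4236 genes were higher and 6.47% lower. The AT3-gcsf library enters both contrasts that call Nos2 and Gchfr, so these calls are not independent of each other. Because the members were chosen with earlier results of these data known, the shares of all genes give a scale and no test of the members. Nos2 and Gchfr were also higher in every AT3-gcsf population than in every naive population, which 7.65% of genes were, and than in every AT3 population, which 11% of genes were. Of the 8, Nos2 alone also separated all AT3 from all naive populations upwards, although under 20 CPM there, and 2.2% of genes compared did so. Arg1 alone was lower in all AT3-gcsf and all AT3 populations than in all naive ones, but on 0 to 2 UMIs in every population except naive MHTO5 and under 20 CPM throughout; the share of genes lower in this way was 33.3% for AT3-gcsf and naive, 17.8% for AT3 and naive and 9.4% for AT3-gcsf and AT3, where no member was. The log2 ratios of CPM + 5 for AT3-gcsf over naive were 3.18 for Nos2, 2.29 for Gchfr, -0.13 for Cd84, -0.31 for Gch1, -0.64 for Tgfb1, -1.17 for Acod1 and -1.79 for Cd274. Their median was -0.31, beside -0.44 over all genes compared.

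The lower calls depended on the scaling, while Nos2 and Gchfr were called under each. Scaling to TMM factors moved the median of all genes to 0.46 and the split for AT3-gcsf over naive to 747 higher and 181 lower genes, against 178 higher and 927 lower with plain CPM. Under TMM the log2 ratio of Acod1 was -0.29, which ended its call, and that of Cd274 was -1.04, still called; with DESeq2 size factors Cd274 was at -0.95 and not called. Those of Cd84, Tgfb1 and Gch1 were 0.73, 0.20 and 0.47 under TMM, so their signs turned. Nos2 and Gchfr were at 3.57 and 2.69 under TMM. Over all genes the same scaling gave 194 higher and 43 lower genes for AT3 over naive, against 73 higher and 274 lower, and 134 higher and 68 lower for AT3-gcsf over AT3, against 69 higher and 125 lower.

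**Figure D2:**
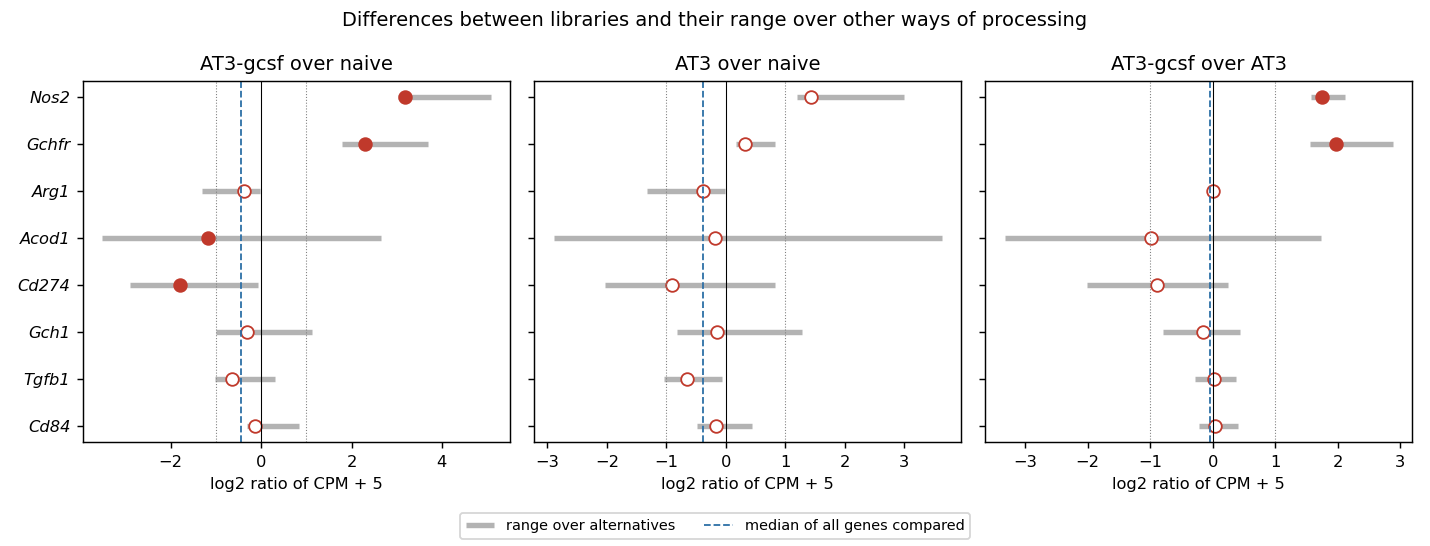
Log2 ratio of CPM + 5 between libraries (horizontal axis) for each gene; filled points are genes called 2-fold different, dotted lines mark 2-fold, and grey bars give the range over all other ways of processing tried. The bars of Nos2 and Gchfr stay beyond 2-fold in both comparisons with AT3-gcsf, while those of Acod1 and Gch1 cross 0 in all 3 comparisons and that of Cd274 reaches -0.06 in AT3-gcsf over naive.

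Acod1 (chr14:103046977-103056573, plus strand), Cd274 (chr19:29367455-29388095, plus strand) and Gch1 (chr14:47153895-47189413, minus strand) differed more among the populations of a library than between libraries. Acod1 stood at 44.4, 45.5 and 546 CPM in AT3-gcsf MHTO3, MHTO4 and MHTO5, at 47.4, 1139 and 122 CPM in AT3 MHTO7, MHTO8 and MHTO10, and at 63.3, 20.9 and 1818 CPM in the naive populations MHTO3, MHTO4 and MHTO5. One population of each library, AT3-gcsf MHTO5, AT3 MHTO8 and naive MHTO5, was far above its neighbours. Cd274 stood at 4.37, 2.51 and 27.2 CPM in the AT3-gcsf, at 2.64, 55.3 and 26.0 CPM in the AT3, and at 31.7, 4.26 and 160 CPM in the naive populations, in the same order of tags. The same 3 populations were highest within their libraries, although AT3 MHTO10 and naive MHTO3 also carried Cd274. Gch1 stood at 18.3, 19.1 and 51.1 CPM in AT3-gcsf, 22.6, 57.2 and 22.1 CPM in AT3, and 19.1, 8.30 and 109 CPM in naive populations. The level of Gch1 outside those 3 populations was thus between 7.65% and 39.5% of the level inside them, and that of Acod1 between 1.15% and 10.7%. Cd274 overlaps the annotated gene AC119228.1 and Gch1 overlaps Gm18811 and Gm49134, so reads there could be shared.

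A gene was called raised in a population when it reached 20 CPM and was at least 2-fold above both other populations of its library after adding 5 CPM to each value. Acod1, Cd274 and Gch1 were raised in AT3-gcsf MHTO5, where 6.87% of genes were raised, and in naive MHTO5, where 15.8% of genes were. In AT3 MHTO8 Acod1 and Gch1 were raised, against 10.6% of genes, while Cd274 there, at 55.3 CPM against 26.0 in MHTO10, fell just short after that addition. No other member was raised in these populations and none in the other 6, which makes 8 calls in all. The share of genes raised in those 6 was 0.0308% in AT3-gcsf MHTO3, 0.24% in AT3-gcsf MHTO4, 2.78% in AT3 MHTO7, 3.03% in AT3 MHTO10, 4.98% in naive MHTO3 and 4.79% in naive MHTO4. The thinned share of cells with an Acod1 UMI was 47.3% in AT3-gcsf MHTO5, 69.7% in AT3 MHTO8 and 71.5% in naive MHTO5, against 4.43% to 16.6% in the other 6 populations. For Cd274 the thinned shares in those 3 populations were 4.44%, 8.25% and 20.4%, and for Gch1 7.06%, 7.76% and 13.4%. Before thinning Acod1 was found in 82.0%, 88.3% and 79.4% of those cells, against 11.4% to 34.5% in the other 6 populations, Cd274 in 18.4%, 22.9% and 31.5%, and Gch1 in 33.4%, 25.04% and 23.4%. Lymphocyte-marker cells, at median depths of 7157.5 UMIs in AT3-gcsf, 5929 in AT3 and 5380 in naive, carried Acod1 in 2 of 10, 6 of 22 and 17 of 88 cells, but all 22 of these AT3 cells, 5 of the 10 AT3-gcsf and 36 of the 88 naive ones bore the tag of the population rich in Acod1. They carried Cd274 in 1 of 10, 4 of 22 and 7 of 88 cells, and Gch1 in 4 of 10, 11 of 22 and 17 of 88 cells. For Gch1 their level was 83.7 CPM in AT3-gcsf and 84.2 CPM in AT3, above that of the populations where Gch1 was raised, so they give no background share for Gch1.

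Markers of other cells moved with these 3 populations. The summed level of 5 epithelial markers, among them Scgb1a1 of club cells and Sftpc of alveolar cells, was 2278 CPM in AT3-gcsf MHTO5, 7211 CPM in AT3 MHTO8 and 10837 CPM in naive MHTO5, against 21.5 to 802 CPM in the other 6 populations. That of 3 endothelial markers (Cdh5, Cldn5 and Ramp2) was 100.04, 243 and 329.9 CPM there, against 0.827 to 5.20 CPM elsewhere. In cells with no UMI of either list, 48.2% to 78.3% of the cells of those populations, Acod1 was at 565, 1332 and 2197 CPM in AT3-gcsf MHTO5, AT3 MHTO8 and naive MHTO5. Acod1, Cd274 and Gch1 were raised in each of those 3 populations among those cells, 9 calls in all, a count added after the data were seen. Among the same cells 6.22% of genes were raised in AT3-gcsf MHTO5, 7.51% in AT3 MHTO8 and 12% in naive MHTO5. For scale, in the other populations Cxcl2, a neutrophil chemoattractant, was at 1.19% to 3.75% of its level in these 3, and Ptgs2, cyclooxygenase 2, at 0.876% to 5.94%; both were chosen after their values were seen. The part of free RNA in the levels outside the 3 populations was not tested.

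Set between those 3 populations alone, Acod1 was 3.33-fold and Cd274 5.87-fold lower in AT3-gcsf MHTO5 than in naive MHTO5, and Gch1 was 2.12-fold lower. AT3 MHTO8 lay between them for all 3 genes in plain CPM. These folds and this order were not recomputed under another scaling. TMM scales naive by a total of 41706178 UMIs in place of 29587834, and AT3-gcsf by 68499337 in place of 90162340. That would shrink all 3 folds and need not keep the order. The pairing rests on these genes' own levels and on no label, so it is a description only. The library sums depend on it: without naive MHTO5, the log2 ratio of Acod1 for AT3-gcsf over naive turned to 2.64 and that of Cd274 came to -0.06, so both lower calls rest on that population. Gch1 was then higher, at 1.12 for AT3-gcsf over naive and 1.28 for AT3 over naive. The call of Acod1 also ended without AT3-gcsf MHTO3, at -0.84, and without AT3-gcsf MHTO4, at -0.65, and the ratio was -3.51 without AT3-gcsf MHTO5.

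The 250 bases before and 50 bases after the start of these 3 genes are shown because the genes were raised in the same populations. The sequences are from RefSeq (GRCm38.p6), 5′ to 3′ on the gene's strand, and capitals mark matches, on either strand, to 4 searched motifs: a loose kappa B motif (GGG and CC with any 5 bases between them), TTCNNNGAA, TGANTCA and ACGTG. Overlapping matches are joined in 1 run of capitals.
Acod1, chr14:103046762-103047061, plus strand: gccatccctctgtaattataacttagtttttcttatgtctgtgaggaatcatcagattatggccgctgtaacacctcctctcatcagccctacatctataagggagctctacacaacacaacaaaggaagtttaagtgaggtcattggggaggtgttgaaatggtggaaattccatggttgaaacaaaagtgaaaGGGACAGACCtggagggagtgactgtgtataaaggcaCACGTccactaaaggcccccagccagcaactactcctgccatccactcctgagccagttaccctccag
Cd274, chr19:29367188-29367487, plus strand: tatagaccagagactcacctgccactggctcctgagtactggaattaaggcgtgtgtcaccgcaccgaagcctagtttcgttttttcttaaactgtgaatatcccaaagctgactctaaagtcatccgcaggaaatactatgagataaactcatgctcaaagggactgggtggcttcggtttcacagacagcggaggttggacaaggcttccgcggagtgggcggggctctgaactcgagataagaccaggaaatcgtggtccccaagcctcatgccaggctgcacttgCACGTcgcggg
Gch1, chr14:47189364-47189663, minus strand: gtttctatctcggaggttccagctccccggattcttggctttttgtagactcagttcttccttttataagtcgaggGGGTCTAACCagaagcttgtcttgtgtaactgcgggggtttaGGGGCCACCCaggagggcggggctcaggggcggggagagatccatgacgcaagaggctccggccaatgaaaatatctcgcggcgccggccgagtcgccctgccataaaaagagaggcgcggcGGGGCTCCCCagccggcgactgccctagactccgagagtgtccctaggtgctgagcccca
Acod1 had 1 match to the loose kappa B motif and 1 to ACGTG, Cd274 had 1 to ACGTG, and Gch1 had 5 to the loose kappa B motif, some of them overlapping. Neither TTCNNNGAA nor TGANTCA was found in these windows. Among 32544 promoter windows of this length, 51.0% held the loose kappa B motif, 19.7% ACGTG, 8.33% TTCNNNGAA and 7.79% TGANTCA, so the 2 motifs that were found are common ones. Promoter windows were matched for 6 of the 8 genes.

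Tgfb1 (chr7:25687002-25705077, plus strand) and Cd84 (chr1:171839697-171890718, plus strand) were found in many cells of every population and were called in none of the 3 comparisons. Tgfb1 stood at 81.6, 63.1 and 65.4 CPM in AT3-gcsf MHTO3, MHTO4 and MHTO5, at 43.1, 76.4 and 102 CPM in AT3 MHTO7, MHTO8 and MHTO10, and at 161, 68.2 and 132 CPM in the naive populations MHTO3, MHTO4 and MHTO5. Cd84 stood at 251, 164 and 153 CPM, 126, 157 and 317 CPM, and 302, 181 and 142 CPM in the AT3-gcsf, AT3 and naive populations, in the same order of tags. The ranges of the 3 conditions overlapped for both genes. The highest Cd84 levels, in AT3 MHTO10 and naive MHTO3, had overlapping intervals, and the interval of AT3 MHTO8 overlapped those of AT3-gcsf MHTO4 and AT3-gcsf MHTO5. Thinned cells carried Cd84 in 20.4% to 36.4% and Tgfb1 in 8.08% to 21.4% of the cells of a population; before thinning these shares were 34.8% to 77.4% and 26.3% to 41.5%. Without naive MHTO4, Tgfb1 passed 2-fold, at -1.03 for AT3-gcsf over naive and -1.04 for AT3 over naive. Lymphocyte-marker cells carried Tgfb1 at 277 CPM in naive, above its level in each naive population, and with a UMI in 65 of 88 cells.

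Arg1 (chr10:24915221-24927484, minus strand), the arginase most often used to describe suppressive myeloid cells, was nearly absent. It gave 3 UMIs in 2 cells of AT3-gcsf, 1 UMI in 1 cell of AT3 and 46 UMIs in 15 cells of naive. In naive MHTO5 alone 13 cells held 44 of these UMIs, or 5.002 CPM (3.63 to 6.72), and each of the other 8 populations held at most 2 UMIs. No fold was taken, since AT3-gcsf and AT3 were at or under the limit of 3 counts. Of the 15 naive cells, 8 with 30 UMIs carried 5 or more lymphocyte-marker UMIs and 7 with 25 UMIs carried 3 or more monocyte or macrophage-marker UMIs, some cells being in both classes; 6 cells with 11 UMIs were in neither. Neutrophil markers made up a median of 0.632% of the UMIs of those 15 cells, against 16.9% over all naive cells. Lymphocyte-marker cells therefore could not serve as cells that lack Arg1.

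Within AT3-gcsf, Nos2 and Gchfr were not spread evenly over cells of different UMI count. Each population was split into 5 groups of equal size by UMIs per cell, a split chosen after seeing values, and the level taken within each. From the shallowest to the deepest group, Gchfr stood at 1.70, 1.46, 3.45, 12.1 and 39.9 CPM in AT3-gcsf MHTO3, at 1.70, 0.558, 4.59, 23.6 and 52.5 CPM in MHTO4, and at 1.27, 2.49, 7.62, 22.6 and 42.7 CPM in MHTO5. The deepest group thus held Gchfr at 23.4, 31.0 and 33.5 times the level of the shallowest, where only 3 or 4 UMIs were counted. Nos2 stood at 13.1, 12.4, 27.1, 41.2 and 38.1 CPM in MHTO3, at 24.2, 28.2, 45.4, 69.4 and 56.7 CPM in MHTO4, and at 17.2, 16.8, 39.7, 59.7 and 47.0 CPM in MHTO5. It peaked in the group next to the deepest, and its level in the deepest group was 2.35 to 2.92 times that in the shallowest. Most genes went the other way: over the genes at 20 CPM or more the median ratio of deepest to shallowest group, after adding 5 CPM, was 0.573, 0.530 and 0.681 in those populations. A ratio as high as that of Nos2 was reached by 3.02% to 4.32% of genes, and one as high as that of Gchfr by 0.630% of genes in MHTO4 and 0.729% in MHTO5. In AT3, Gchfr was at 2.55 to 4.35 CPM in the deepest groups and gave no UMI in the shallowest. Nos2 had no common direction in AT3. Its level in the deepest group was 0.403, 2.12 and 11.8 times that in the shallowest in MHTO7, MHTO8 and MHTO10. Those shallowest groups held 6, 12 and 1 Nos2 UMIs.

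**Figure D3:**
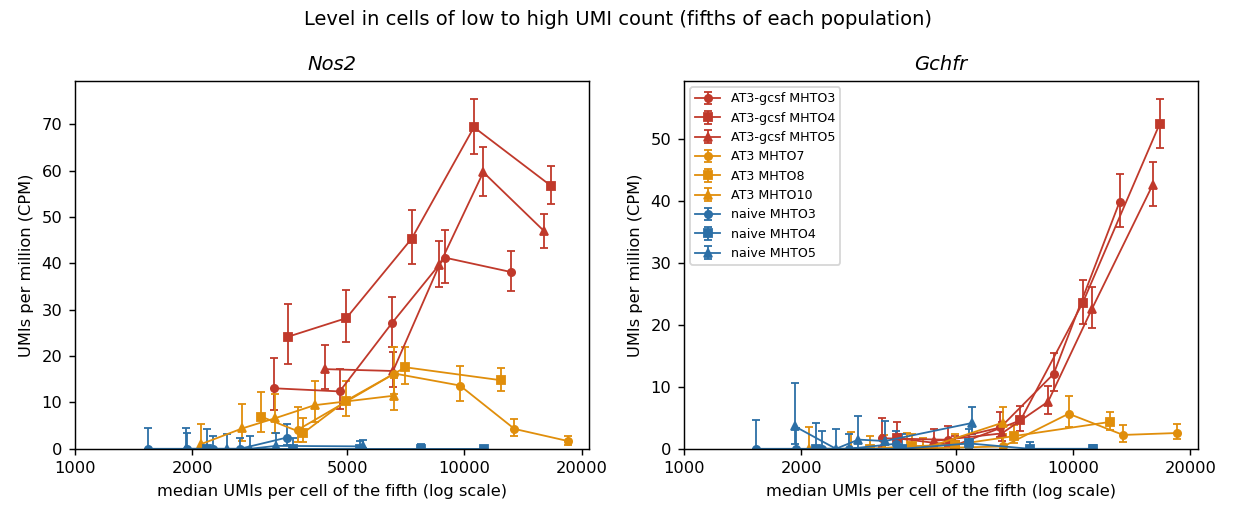
Level of Nos2 and Gchfr in CPM (vertical axis) within 5 groups of equal size of the cells of each population, placed at the group's median UMIs per cell (horizontal log axis), with exact 95% Poisson intervals. In the 3 AT3-gcsf populations Gchfr climbs to 39.9 to 52.5 CPM in the deepest group, and Nos2 peaks in the group before it, between 41.2 and 69.4 CPM.

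Cd84, Tgfb1 and Cd274 had lower CPM, which is a share of all UMIs, in the deepest AT3-gcsf cells. Their UMI counts, from the shallowest to the deepest group of equal size, mostly did not fall. In MHTO5 they rose from 714 to 1499 for Cd84, 375 to 747 for Tgfb1 and 135 to 298 for Cd274. Counts of Cd84 and Tgfb1 also rose in MHTO3 and MHTO4, while Cd274 went from 24 to 21 UMIs in MHTO3. In AT3-gcsf MHTO4 the CPM of the deepest group was 0.261 times that of the shallowest for Cd84. It was 0.326 times for Tgfb1 and 0.180 times for Cd274, the latter on 16 UMIs in each group. In MHTO5, where Cd274 was higher, these ratios were 0.478, 0.454 and 0.503, and in MHTO3 0.462, 0.323 and 0.184. After adding 5 CPM, 71.9% to 83.8% of genes in MHTO5 had ratios at or above those of these 3 genes. For Cd84 and Tgfb1 this share was 68.5% and 89.3% in MHTO3 and 92.5% and 81.6% in MHTO4. Cd274 was under 20 CPM in MHTO3 and MHTO4 and was not ranked there. Most genes had a lower CPM in the deepest cells, and these genes had ratios below those of most genes. Cells with a Nos2 UMI also carried more neutrophil-marker RNA: a median of 34.0%, 34.9% and 31.6% of their UMIs in AT3-gcsf MHTO3, MHTO4 and MHTO5, against 26.2%, 24.9% and 24.6% in cells without one. Cells with a Gchfr UMI carried 36.5%, 39.0% and 33.9%, against 26.6%, 25.9% and 24.97%. Cells with an Acod1 UMI did so too, at 31.7%, 33.0% and 27.0% against 25.7%, 25.4% and 21.9% in the same order of tags. Cells with a Cd274 UMI had no common direction, at 26.6%, 21.1% and 26.5% against 27.6%, 28.4% and 26.1%. The neutrophil-marker share also rose with UMI count. From the shallowest to the deepest group it went from 14.5% to 38.4% in MHTO3, 10.8% to 39.5% in MHTO4 and 14.7% to 33.4% in MHTO5. The part of UMI count in these differences was not tested.

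Whether the 8 genes share cells was asked with cells thinned to 1500 UMIs, by comparing the cells with both genes to the number expected if the shares within each population were independent. Of the 28 pairs, 20 had at least 10 expected cells. Their ratios of observed to expected cells ran from 0.508 to 1.72. The highest was that of Nos2 and Gchfr, with 20 cells observed and 11.6 expected, a ratio of 1.72 (1.05 to 2.66). Without thinning the ratio was 1.77. When unthinned cells were compared within 10 groups of UMI count, it was lost: 505 cells had both genes where 503 were expected, a ratio of 1.004 (0.918 to 1.10). Under that calculation, added after the data were seen, the 20 pairs lay between 0.943 and 1.08.

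Acod1 and Cd274 were found together in 715 cells against 617 expected, a ratio of 1.16 (1.07 to 1.25), and within the 10 groups of UMI count the ratio was 1.07 (1.02 to 1.12). Cd274 and Tgfb1 shared 203 cells against 164 expected, a ratio of 1.24 (1.07 to 1.42), and 1.08 (1.01 to 1.15) within the 10 groups. These were the 2 pairs whose intervals lay above 1 in both calculations, and their excess was small. Acod1 and Gch1, which were raised in the same populations, shared 554 cells against 540.1 expected, a ratio of 1.03 (0.942 to 1.12). Tgfb1 and Gchfr shared 14 cells against 27.6 expected, a ratio of 0.508 (0.278 to 0.852), which came to 0.956 (0.882 to 1.04) within the 10 groups. None of these intervals is adjusted for the number of pairs.

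**Figure D4:**
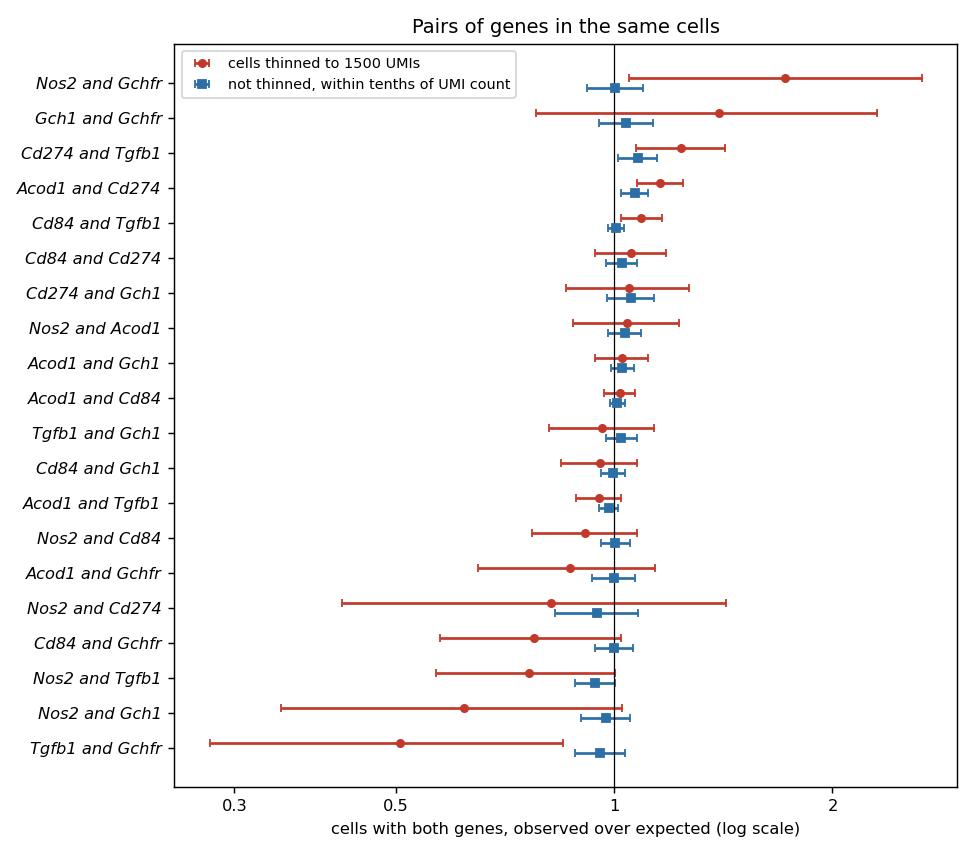
Cells carrying both genes of a pair, as observed over expected numbers (horizontal log axis, line at 1), for the 20 pairs with at least 10 expected cells; circles are cells thinned to 1500 UMIs, squares are unthinned cells within 10 groups of UMI count, and bars are exact 95% Poisson intervals. The circles spread from 0.508 to 1.72, whereas the squares lie between 0.943 and 1.08.

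Cells with 3 or more of the 8 genes were set against the share that independence within a population gives. They made up 4.03% of thinned cells in AT3-gcsf MHTO5 against 4.07% expected, 6.51% in AT3 MHTO8 against 5.81%, and 11.4% in naive MHTO5 against 10.8%. They made up 1.02% against 0.919% in AT3-gcsf MHTO3 and 0.879% against 0.857% in AT3-gcsf MHTO4. In AT3 they made up 0.656% against 0.374% in MHTO7 and 1.84% against 1.87% in MHTO10, and in naive 1.08% against 1.28% in MHTO3 and 0.0974% against 0.214% in MHTO4. The shares of AT3 MHTO7 and naive MHTO4 rest on only 13 and 2 cells, and no intervals were computed. No cell carried more than 5 of the genes.

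Between populations the genes fell into sets that were high in the same places. Over the 9 populations, which share 3 libraries and their lanes, the correlation of log2(CPM + 5) was 0.93 between Nos2 and Gchfr, 0.97 between Acod1 and Gch1, 0.88 between Acod1 and Cd274 and 0.83 between Cd274 and Gch1, while Nos2 and Acod1 were at -0.02 and Nos2 and Gch1 at 0.02. Among 5285 genes reaching 20 CPM in a population, those most like Nos2 in this respect were Acadl (r = 0.979), Csta2 and Dap, and those most like Gchfr were Rplp0 (r = 0.986), Lpcat3 and Ubxn6. The closest to Acod1 were Csrnp1 (r = 0.988), Gm43660 and Lmnb1, to Cd274 Ist1 (r = 0.995), Cdc42ep4 and Ggct, and to Gch1 Tlr2 (r = 0.982), Slc16a3 and Stx12. Mef2a, Sdha and Poldip3 were most like Tgfb1, and Ltbr, Rnf145 and Naa60 most like Cd84. For Arg1 they were Csf2, Ccl1 and Ccl7, each at 0 UMIs in at least 1 population. The 9 populations come from 3 libraries and are not 9 independent samples.

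Within populations, cells with a Nos2 UMI were set against those without one by the 5 genes with the highest ratio of CPM + 10. Prok2, which encodes prokineticin 2, was among these 5 in all 3 AT3-gcsf populations: 2083 CPM in Nos2-positive against 1076 CPM in Nos2-negative thinned cells of MHTO3, 1693 against 1055 CPM in MHTO4, and 1912 against 1087 CPM in MHTO5. Ly6g, the surface marker of mouse neutrophils, stood at 699 against 461 CPM in MHTO4, and Mmp8, a neutrophil collagenase, at 1892 against 1107 CPM in MHTO5. Not all neutrophil markers went this way. Csf3r was lower in Nos2-positive cells: 773 against 1108, 893 against 1086 and 703 against 762 CPM in MHTO3, MHTO4 and MHTO5. Camp was lower in MHTO3, at 82.6 against 192 CPM, and in MHTO4, at 214 against 353 CPM. In MHTO5 Camp was at 112 against 95.6 CPM, and S100a8 was higher in all 3 populations. For cells with an Acod1 UMI, Ccrl2, a chemokine-binding receptor, was among the 5 in AT3-gcsf MHTO4 and MHTO5, AT3 MHTO8 and naive MHTO5. In naive MHTO5 it was at 1321 CPM in Acod1-positive against 616 CPM in Acod1-negative cells, and in AT3 MHTO8 at 1255 against 601 CPM. Haemoglobin genes, which mark red cells, were among them in AT3 MHTO8 and naive MHTO3, with Hbb-bs at 183 CPM in Acod1-positive against 5.06 CPM in Acod1-negative cells of AT3 MHTO8 and at 656 against 167 CPM in naive MHTO3.

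For cells with a Cd274 UMI the same rule named these genes. Cxcl10, an interferon-induced chemokine, came first in AT3-gcsf MHTO5, at 109.8 CPM in Cd274-positive against 4.91 CPM in Cd274-negative cells, and in naive MHTO3, at 101 against 3.23 CPM, although on 27 and 18 UMIs in the positive cells. In AT3 MHTO10 the interferon-induced gene Ifit1 was at 720.2 against 161 CPM and Ifit3 at 494 against 87.5 CPM. Gbp2, an interferon-induced GTPase, was among the 5 leading genes in AT3 MHTO8, at 367 against 176 CPM, in naive MHTO3, at 258 against 63.5 CPM, and in naive MHTO5, at 108 against 36.7 CPM. These ratios were chosen as the highest of many and carry the counting error of few UMIs.

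The partners of the 8 genes in their pathways were read from 7 gene lists. Of the arginine and nitric oxide list, 4 of 11 genes reached 20 CPM in AT3-gcsf or naive; besides Nos2 only Odc1, ornithine decarboxylase, was called, at 14.7 CPM in AT3-gcsf and 42.9 CPM in naive, a call that ended under TMM (log2 ratio -0.54). Oat, ornithine aminotransferase, was called higher under TMM, at 1.62, and Oat and Arg2, arginase 2, were under DESeq2 size factors, at 1.72 and 1.08. Of the 8 tetrahydrobiopterin genes 4 were compared and only Gchfr was called. Of the 5 genes compared on the itaconate and Krebs cycle list only Acod1 was called; under TMM and DESeq2 size factors only Sdhb was, higher at 1.34 and 1.44. In the SLAM family 2 of 11 genes were compared for AT3-gcsf and naive, and Cd244a, another receptor of the family, was higher, at 153 CPM in AT3-gcsf and 132 CPM in AT3 against 41.3 CPM in naive.

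Of 5 checkpoint ligands and suppressive mediators compared between AT3-gcsf and naive, 3 were lower: Cd274, Cd80, the costimulatory ligand, at 11.5 CPM in AT3-gcsf, 25.2 CPM in AT3 and 80.6 CPM in naive, and Icosl, the ligand of ICOS, at 6.51, 11.1 and 28.3 CPM in AT3-gcsf, AT3 and naive. Of all genes compared 21.3% were lower. Markers of other cells were lower too: Cd74, of antigen-presenting cells, was at 18.5 CPM in AT3-gcsf, 113 CPM in AT3 and 681 CPM in naive, Cd79a, of B cells, at 1.11, 3.32 and 25.2 CPM, and C1qa, of macrophages, at 1.46, 3.22 and 24.03 CPM in the same libraries. The part of such cells in the lower levels was not tested. Of 11 TGF-beta pathway genes compared, 6 were lower in AT3-gcsf than in naive (Tgfbr1, Tgfbr2, Smad7, Tgif1, Skil and Ski), with log2 ratios from -1.65 to -1.04, and none was higher, beside 21.3% of all genes lower and 4.1% higher. Under TMM scaling none of these 6 was called and Nrros was higher, at 1.28; under DESeq2 size factors Nrros and Smad4 were higher, at 1.38 and 1.05. Under TMM, of the 3 checkpoint ligands Cd274 and Cd80 were still called. Under DESeq2 size factors Cd80 alone was. Between AT3 and naive, Cd80 and Icosl were lower with plain CPM, at -1.50 and -1.05, and not called under TMM. Of 15 inducing regulators compared, 2 were higher and 2 lower in AT3-gcsf than in naive with plain CPM, beside 4.1% and 21.3% of all genes. Under TMM 5 were higher and 0 lower, and under DESeq2 size factors 6 and 0. Of all genes called in that comparison 16.1% were higher with plain CPM, 80.5% under TMM and 86.7% under DESeq2 size factors. Between AT3 and naive 2 of the regulators were higher with plain CPM, beside 1.72% of all genes, and 0 were lower. Ifngr1, the ligand-binding chain of the interferon-gamma receptor, was at 559 CPM in AT3-gcsf, 246 CPM in AT3 and 133 CPM in naive. Il4ra, the interleukin 4 receptor chain, was at 192 CPM in AT3-gcsf, 146 CPM in AT3 and 66.9 CPM in naive. Both were higher in AT3-gcsf than in naive under each of the 3 scalings. Nfkb1, a subunit of NF-kappa B, was lower with plain CPM, at a log2 ratio of -1.25, and not called under TMM, where its ratio was -0.41.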

How the data were processed

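Gene-by-cell matrices of whole UMI counts per gene and barcode were deposited, 1 per lane, made with Cell Ranger 4.0.0 on mm10 after bcl2fastq 2.20.0.422, per the submitters' processing notes; the matrices hold called barcodes only. The deposited hashtag tables, also counts, were joined to each matrix by barcode; the sources used here do not name the program that counted the tags. A cell was assigned to its top named tag when that tag held at least 80% of named-tag counts and 20 counts, which removes doublets across tags in part; doublets within a tag remain, since no doublet caller was run. This assigned 94.1%, 97.4% and 95.7% of barcodes in AT3-gcsf, AT3 and naive. Cells with under 200 genes or 10% or more mitochondrial UMIs were left out (29, 19 and 30 cells). UMIs were summed per population and library and scaled to counts per 1000000 (CPM); a gene was compared at 20 CPM or more and called at 2-fold after adding 5 CPM. The full libraries held 99703525, 54424062 and 32089597 UMIs, and the cells used 90162340, 52157630 and 29587834, so a count of 3 is worth 0.0333 CPM in AT3-gcsf and 0.101 CPM in naive. With 1 library per condition no test was possible and none was run. The counts are not scaled per length, so levels of different genes were not compared.

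The genes named are the 8 members, called members of 7 pathway lists, the 3 genes most correlated with each member over populations, and the 5 genes most raised in thinned cells with Nos2, Acod1 or Cd274 (Arg1, also in that rule, had too few cells). The values of 1 gene of the regulator list are not reported here. The members and the lists were chosen with earlier results of these data known. The 5 groups of UMI count, the 3 populations rich in Acod1, the printed promoters, the threshold of 1.5 times for pairs and that of 1% for shares of cells were chosen after values were seen. Calculations used Python 3.11.15, numpy 2.4.6, scipy 1.17.1 and pandas 2.3.3, with edgeR 4.0.16 (TMM) and DESeq2 1.42.0 (size factors) for other scalings in R 4.3.3; scripts were tested on simulated data.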

Additional observations from a re-analysis of the deposited data

Results flagged for a closer look

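Barcodes without a dominant tag, which include barcodes with several tags and were left out of every comparison, also held Nos2 and Gchfr above the naive level. In the 612 such barcodes of AT3-gcsf, with a median of 14300.5 UMIs, Nos2 was at 37.7 CPM (33.9 to 41.8) and Gchfr at 22.1 CPM (19.2 to 25.3). In the 202 of AT3 Nos2 was at 9.87 CPM (6.18 to 14.9). In the 324 of naive Nos2 gave no UMI, which by a limit of 3 counts allows up to 1.25 CPM, and Gchfr was at 1.25 CPM (0.258 to 3.65).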

How the results depend on the processing

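Nos2 was called higher in AT3-gcsf in all settings tried, with log2 ratios from 3.03 to 5.08 over naive and from 1.57 to 2.11 over AT3, and Gchfr kept its direction, from 1.80 to 3.70 and from 1.55 to 2.88, its call ending after thinning because it fell under 20 CPM. The number of genes of the 8 that differed 2-fold between AT3-gcsf and naive was 4 with plain CPM, and lower or made up of other genes in some other settings. It was 2 with DESeq2 size factors, where Acod1 and Cd274 were at -0.18 and -0.95. Between AT3 and naive it was 0, and 1 with no minimum CPM (Nos2), 1 with populations weighted equally (Cd274), and 0 to 3 when each population was left out (2 without AT3 MHTO8, and 1, 3 and 2 when naive MHTO3, MHTO4 or MHTO5 was dropped). Between AT3-gcsf and AT3 it was 2, and 4 with populations weighted equally, and 2 to 4 when each was left out (4 without AT3-gcsf MHTO5 or without AT3 MHTO7). The ratio of Acod1 for AT3-gcsf over naive reversed to 2.64 without naive MHTO5, the population that held most of naive Acod1. Gch1 was then also higher, at 1.12, and Cd274 was no longer called, at -0.06. The call of Acod1 also ended under TMM, at -0.29, and without AT3-gcsf MHTO3 or MHTO4. Over all genes the number called 2-fold different ran from 928 to 1531 for AT3-gcsf and naive, from 237 to 832 for AT3 and naive and from 165 to 367 for AT3-gcsf and AT3. Pairs at 1.5 times the expected number of cells or more were 1, and 0 when thinned to 1000 UMIs, 2 with no thinning, 0 within 10 groups of UMI count, and 0 without each of the 3 AT3-gcsf populations (0 to 1 over all left out). Thinned to 1000 UMIs, and without AT3-gcsf MHTO3 or MHTO4, Nos2 and Gchfr stood at 2.13, 1.65 and 2.21 but had under 10 expected cells; without AT3-gcsf MHTO5 they stood at 1.38. The calculations within 10 groups of UMI count, without cells carrying epithelial or endothelial markers, and with Csf1r and Adgre1 dropped from the other-lineage markers were chosen after seeing the data. The cause of the other changes was not tested. No paired analysis was possible because each condition is 1 library and no label ties a tag of one library to a tag of another. Counts were low for Arg1 in all libraries, at most 46 UMIs, in naive, the shallowest. Gchfr outside AT3-gcsf gave 2 to 55 UMIs per population. The part of depth in these low counts was not tested.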
